A study of Homo sapiens with 6 samples.

Results

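The genes described here cover the import of cystine and the making, recycling, use and breakdown of glutathione. The 10 symbols were taken from a list of pathway genes and matched exactly in the count tables: SLC7A11, SLC3A2, GCLC, GCLM, GSS, GSR, GGT1, GGT7, CHAC2 and GLRX. All 10 were found among 43424 symbols, and all 10 had enough counts to be tested, among 13198 genes tested in all. They were counted in HepG2, an established human cell line from a liver cancer that expresses many hepatocyte genes, labelled as wild type. The 3 control libraries came from cells with no treatment by the labels, and the other 3 from cells given 10 µM tamarixetin, a methylated relative of the plant flavonol quercetin, for 24 h. All 6 are labelled as biological replicates of one line, with no vehicle named for the controls. Tamarixetin was given in medium with 1% serum, while cells were grown in 10%, and that protocol, attached alike to all 6 libraries, describes treated wells and does not mention the medium of the controls. An effect of the compound and one of serum or vehicle cannot be told apart where the controls differed in them. The title of the series names SLC7A11, GPX4 and NRF2, and the question addressed here is how the steps around glutathione moved beside them.

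Glutathione is a tripeptide of glutamate, cysteine and glycine and the main small thiol of the cell. Cysteine is often its limiting part and enters as the oxidised dimer cystine through a transporter of a light chain, SLC7A11, and a heavy chain, SLC3A2, in exchange for glutamate. Glutamate-cysteine ligase, made of the catalytic subunit GCLC and the modifier subunit GCLM, then joins glutamate to cysteine, and the synthetase GSS adds glycine. Peroxidases and glutaredoxins spend glutathione as a reductant, GSR brings the oxidised form back with NADPH, and glutamyltransferases and cyclotransferases take the peptide apart. The liver is a main producer of glutathione for the rest of the body. NRF2, held back by KEAP1, is known to act on many of these genes through antioxidant response elements, and ATF4, the factor of the amino acid response, on SLC7A11 and SLC3A2.

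Values are given as CPM, a gene's counts relative to its library's total after adjustment by TMM factors. They are levels of RNA, and protein, cystine uptake and glutathione were not measured here. The libraries read 1 tag near the 3′ end of each transcript, so that CPM of different genes may be set side by side without division by length. Library totals ran from 11980585 to 16168855 counts, and 18291 to 19003 genes had a count. Between replicates the chi-square per gene was 2.33 to 3.42, and 37.3 to 47.5 for a control against a tamarixetin library, so no library was taken for a copy of another. All 9 hepatocyte markers (among them ALB, AFP and HNF4A) were expressed, at a summed level of 16010 to 16619 CPM in control and 9220 to 9480 CPM in tamarixetin libraries. The 8 markers of immune, endothelial and stromal cells summed to 116 to 117 CPM in control and 104 to 107 CPM in tamarixetin libraries. Most of that was ACTA2 (72.5 CPM in control), while the leukocyte gene PTPRC had 5 counts in the control and 4 in the tamarixetin group. Both sums were lower with tamarixetin, and their part in the results below was not tested. In the second set ACTA2 and COL1A1 fell (log2 fold change -0.18 and -0.28), while CD68, PECAM1, COL3A1 and DCN did not pass the test given below. PTPRC and VWF had too few counts to be tested. All libraries are labelled as HepG2, and in bulk RNA less RNA per cell and fewer expressing cells within that line cannot be told apart.

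With tamarixetin, 6 of the 10 genes rose, 1 fell and 3 did not pass the test. RNA of both cystine transporter chains, both glutamate-cysteine ligase subunits, glutathione reductase and glutaredoxin was higher, by 1.97-fold (GLRX) to 3.91-fold (GCLM). GGT1 was 2.59-fold lower. GSS, GGT7 and CHAC2 did not pass. The test was the quasi-likelihood F test of edgeR, and a gene was called at a Benjamini-Hochberg adjusted p under 0.05 over the 13198 genes tested. Of these, 43.7% were called, 22.4% higher and 21.3% lower. Rises of at least 2-fold were called in 3.37% of genes tested and in 5 of the 10 genes here. The 2 groups of libraries did not overlap in 8 of the 10, 7 with tamarixetin above and 1 below, against 50.5% of all genes tested. The median log2 fold change of the 10 genes was 1.01, beside 0.00038 for all genes tested, and the median size of the change without its sign was 1.09 beside 0.23.

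**Figure D1:**
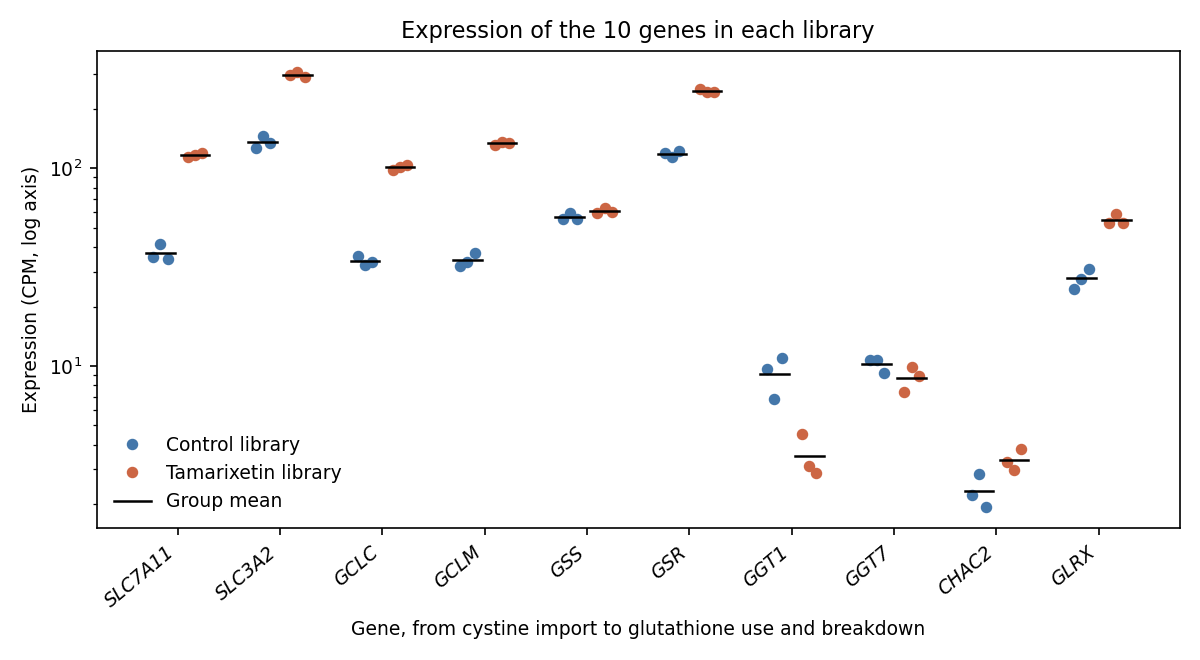
Expression of the 10 genes in each library, in CPM on a log axis, with control libraries in blue, tamarixetin libraries in orange and a black line at each group mean. The groups lie apart in 8 genes and overlap in GSS and GGT7; GGT1 is the single gene whose tamarixetin libraries all lie below the controls.

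RNA of both chains of the cystine transporter was higher. SLC7A11, the light chain that carries cystine in and glutamate out (chromosome 4, 138164097 to 138242349, GRCh38.p14, minus strand), stood at 35.7, 41.3 and 34.9 CPM in the control libraries and at 114, 117 and 120 CPM with tamarixetin. The lowest tamarixetin library was thus far above the highest control, and the log2 fold change was 1.65 (SE 0.062, adjusted p = 9.54e-44), the 160th highest of 13198. SLC7A11-AS1, a long noncoding RNA on the other strand that overlaps the gene, had 0 counts in all libraries. SLC3A2, the glycoprotein chain that brings SLC7A11 and related light chains to the cell surface (chromosome 11, 62856109 to 62888860, plus strand), stood at 127, 146 and 134 CPM in control and 298, 306 and 291 CPM with tamarixetin. Its log2 fold change was 1.14 (SE 0.043, adjusted p = 3.51e-43). The heavy chain was the most abundant of the 10 genes in both groups.

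Within a library, the ratio of SLC7A11 to SLC3A2 counts needs no scaling between libraries. It was 0.280, 0.283 and 0.259 in control and 0.382, 0.382 and 0.412 with tamarixetin. Each tamarixetin library thus had more light chain counts per heavy chain count than any control. The log2 ratios lay 0.51 apart, a factor of 1.43. The groups did not overlap, and the exact permutation test gave a two-sided p of 0.1 (n = 3 per group; 0.1 adjusted over 4 ratios), the smallest that 3 against 3 libraries allow.

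The promoters of SLC3A2, GCLM and GCLC are shown because these 3 genes rose together and differ in the motifs their windows hold. Each runs from 250 bases before to 50 bases after a transcript start in RefSeq (GRCh38.p14), 5′ to 3′ on the gene's strand, and capitals mark matches to either of a pair of motifs searched on both strands. These are TGACNNNGC, the core of the antioxidant response element, and TGATGNAA, the composite element bound by ATF4. The window of SLC3A2 lies on chromosome 11 from 62881449 to 62881748 and belongs to a start inside the span of the gene. GCLM's lies on chromosome 1 from 93909381 to 93909680, and GCLC's on chromosome 6 from 53545052 to 53545351.
SLC3A2: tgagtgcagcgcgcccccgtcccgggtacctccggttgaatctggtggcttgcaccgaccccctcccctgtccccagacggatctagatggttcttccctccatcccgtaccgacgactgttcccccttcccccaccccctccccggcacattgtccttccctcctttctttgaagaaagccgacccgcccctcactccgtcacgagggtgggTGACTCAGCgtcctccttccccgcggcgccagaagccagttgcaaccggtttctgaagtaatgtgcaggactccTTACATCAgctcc
GCLM: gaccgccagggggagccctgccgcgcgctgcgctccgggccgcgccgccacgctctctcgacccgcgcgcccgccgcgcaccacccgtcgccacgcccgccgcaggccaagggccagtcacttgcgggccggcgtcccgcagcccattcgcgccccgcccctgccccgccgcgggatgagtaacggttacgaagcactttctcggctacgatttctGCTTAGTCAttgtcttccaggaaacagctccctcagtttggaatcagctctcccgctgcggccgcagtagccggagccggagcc
GCLC: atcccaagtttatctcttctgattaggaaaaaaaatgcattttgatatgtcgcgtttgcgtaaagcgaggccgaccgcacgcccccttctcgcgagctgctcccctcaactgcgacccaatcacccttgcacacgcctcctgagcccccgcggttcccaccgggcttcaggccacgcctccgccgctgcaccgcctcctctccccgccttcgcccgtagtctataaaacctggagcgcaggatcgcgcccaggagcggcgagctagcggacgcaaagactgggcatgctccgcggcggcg

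SLC3A2 held both motifs, the response element core as TGACTCAGC beginning 37 bases before the start and the ATF4 element on the reverse strand, TTACATCA as read on the gene's strand, beginning at base 38 after it. The first of these also contains the AP-1 site TGANTCA. GCLM held the response element core on the reverse strand, GCTTAGTCA as read on the gene's strand, from base -34. GCLC held neither within these 300 bases. Windows were matched for 7 of the 10 genes, and those of SLC7A11, GSS and GSR were not used here. GGT1, GGT7, CHAC2 and GLRX held neither motif, as GCLC did, so that 5 of the 7 windows had none. Over all 35116 windows, 13.3% held TGACNNNGC, 3.62% TGATGNAA and 7.71% TGANTCA. A match is a description of the letters and not of binding.

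RNA of both subunits of glutamate-cysteine ligase, the enzyme of the first step of synthesis, was higher. GCLC, the catalytic subunit (chromosome 6, 53497341 to 53545101, minus strand), stood at 36.0, 32.4 and 33.8 CPM in control and at 98.4, 101 and 104 CPM with tamarixetin. The log2 fold change was 1.57, with an SE of 0.064 and an adjusted p of 6.86e-41. Its tamarixetin libraries were all near 3 times the controls (2.97-fold, 95% interval 2.72 to 3.24). GCLM, the modifier subunit that raises the affinity of the enzyme for glutamate (chromosome 1, 93885199 to 93909430, minus strand), stood at 31.9, 33.6 and 37.1 CPM in control and 132, 136 and 134 CPM with tamarixetin. This was the largest rise of the 10 genes, at 1.97 on the log2 scale with an SE of 0.060 (adjusted p = 5.14e-51), the 116th highest of 13198. GCLC-AS1, which overlaps GCLC, had 1 count in all 6 libraries together.

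The subunits were counted about equally in control cells, with a GCLM to GCLC ratio of 0.887, 1.04 and 1.10. With tamarixetin the ratio was 1.34, 1.35 and 1.29, so that GCLM stood above GCLC in each of these libraries. The difference on the log2 scale was 0.40, a factor of 1.32, with no overlap between the groups (exact permutation test, two-sided p = 0.1, the smallest possible, n = 3 per group). Control libraries differed more among themselves in this ratio (SD 0.109) than tamarixetin libraries (SD 0.033).

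GSS, the synthetase that adds glycine in the second and last step (chromosome 20, 34928432 to 34956027, minus strand), did not pass the test. It stood at 55.4, 59.2 and 55.7 CPM in control and at 59.1, 63.0 and 60.3 CPM with tamarixetin, and the groups overlapped. The fold was 1.07 with a 95% interval of 0.98 to 1.17 (log2 fold change 0.10, SE 0.064, adjusted p = 0.207), so that the interval lies well under the folds of GCLC and GCLM. MYH7B, which overlaps one end of GSS, had 22 counts in the control and 4 in the tamarixetin group, few beside the 2400 and 2523 counts of GSS.

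The order of the synthesis enzymes turned between the groups. GCLC counts per GSS count were 0.650, 0.548 and 0.606 in control and 1.66, 1.61 and 1.73 with tamarixetin. The synthetase was thus the more abundant transcript in every control library and the ligase subunit in every tamarixetin library, 1.48 apart on the log2 scale or a factor of 2.78 (two-sided p = 0.1 in the exact permutation test, the smallest possible, n = 3 per group).

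**Figure D2:**
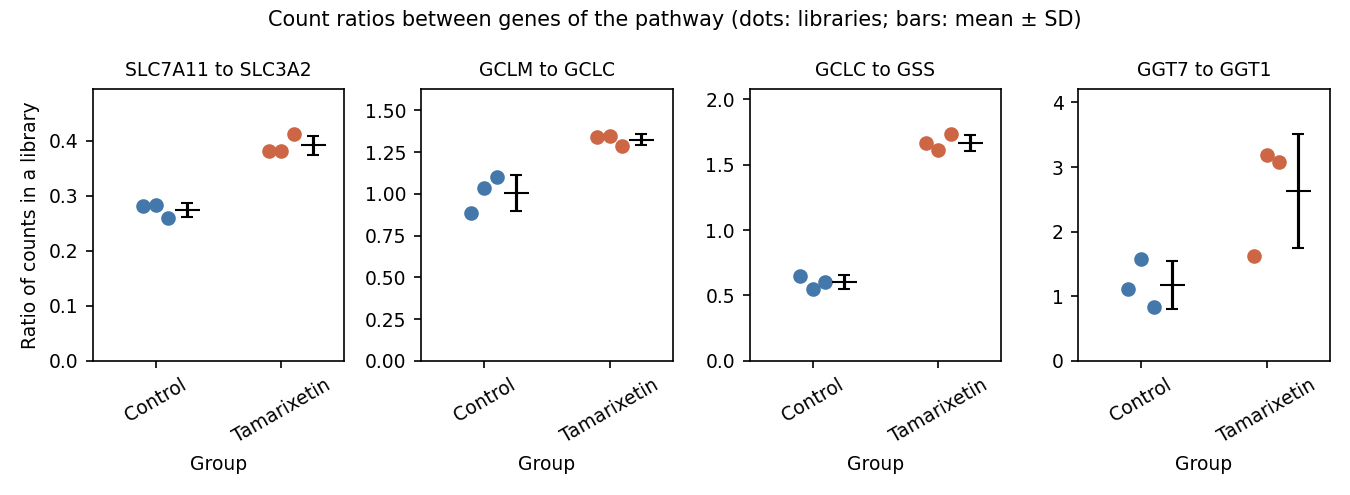
Ratios of raw counts between genes in each library, with dots for libraries and bars for the mean and SD of 3 libraries, each panel starting at 0. The 4 ratios do not overlap between groups; GCLC to GSS lies between 0.548 and 0.650 in control and between 1.61 and 1.73 with tamarixetin.

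GSR, the NADPH-dependent reductase that returns oxidised glutathione to its reduced form, was the second most abundant of the 10 genes. Its level was 120, 115 and 122 CPM in control and 253, 243 and 243 CPM with tamarixetin. This was a 2.07-fold rise with little spread in either group (log2 fold change 1.05, SE 0.044, adjusted p = 8.55e-40). GLRX, the cytosolic glutaredoxin that uses glutathione to free protein thiols (chromosome 5, 95813849 to 95822726, minus strand), stood at 24.5, 27.7 and 31.1 CPM in control and at 52.8, 58.5 and 52.9 CPM with tamarixetin. Its groups lay apart, with a fold of 1.97 and a 95% interval of 1.77 to 2.20 (log2 fold change 0.98, SE 0.079, adjusted p = 4.79e-20).

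The breakdown genes were low and did not move as one. GGT1, the cell surface glutamyltransferase that begins the breakdown of glutathione outside the cell (chromosome 22, 24583750 to 24628996, plus strand), had 140, 82 and 175 counts in control and 71, 43 and 35 counts with tamarixetin. These are 9.68, 6.83 and 11.0 CPM against 4.55, 3.11 and 2.89 CPM, so that every tamarixetin library was below every control, though each group varied by a coefficient of 23.1% and 25.7%. The log2 fold change was -1.37 (SE 0.192, adjusted p = 1.75e-09), the 167th lowest of 13198. The number of counts limits its precision, and the 95% interval of the log2 fold change was -1.75 to -0.99.

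Reads of GGT1 could be shared with its copies and with a gene on the other strand. GGT2P, GGT3P, GGTLC1, GGTLC2 and GGTLC3, related genes and pseudogenes of GGT1, had 0 counts in all libraries, and GGT8P had 1 count in the control and 14 in the tamarixetin group. Counts of 0 do not show whether reads that match GGT1 and a copy alike were kept or dropped. LRRC75B, which lies within the span of GGT1 on the minus strand, had 362 counts in the control and 279 in the tamarixetin group, against 397 and 149 of GGT1. The strand setting of the counting is not given in the sources used here, so reads in the shared stretch could fall to either gene. That stretch, 24585635 to 24593073, lies toward the start of GGT1, while the tags are read near the 3′ end of transcripts. How many reads were shared was not tested.

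GGT7, a relative of GGT1 whose own enzyme activity is less well known (chromosome 20, 34844720 to 34872856, minus strand), stood at 10.7, 10.8 and 9.22 CPM in control and at 7.38, 9.91 and 8.91 CPM with tamarixetin. The groups overlapped, and the log2 fold change of -0.23 had a 95% interval of -0.52 to 0.067 (adjusted p = 0.217). The ratio of GGT7 to GGT1 was 1.11, 1.57 and 0.840 in control and 1.62, 3.19 and 3.09 with tamarixetin, 1.15 apart on the log2 scale (two-sided p = 0.1 in the exact permutation test, the smallest possible, n = 3 per group). The closest libraries, control replicate 2 and tamarixetin replicate 1, were separated by little in this ratio.

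CHAC2, a cytosolic cyclotransferase that cleaves glutathione slowly (chromosome 2, 53767783 to 53775196, plus strand), was the lowest of the 10 genes. It had 32, 34 and 31 counts in control and 51, 41 and 46 counts with tamarixetin, or 2.21, 2.83 and 1.94 CPM against 3.27, 2.97 and 3.79 CPM. Each tamarixetin library lay above each control, but the difference did not pass (log2 fold change 0.53, 95% interval -0.020 to 1.08, adjusted p = 0.115), and at these counts the interval spans folds from 0.99 to 2.12. ASB3, a gene on the minus strand that spans CHAC2, had 258 and 262 counts in the control and tamarixetin groups. CHAC1, the related enzyme that cleaves glutathione fast and is known as an ATF4 target, had 1, 0 and 8 counts in control and 6, 7 and 6 with tamarixetin, too few to be tested.

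**Figure D3:**
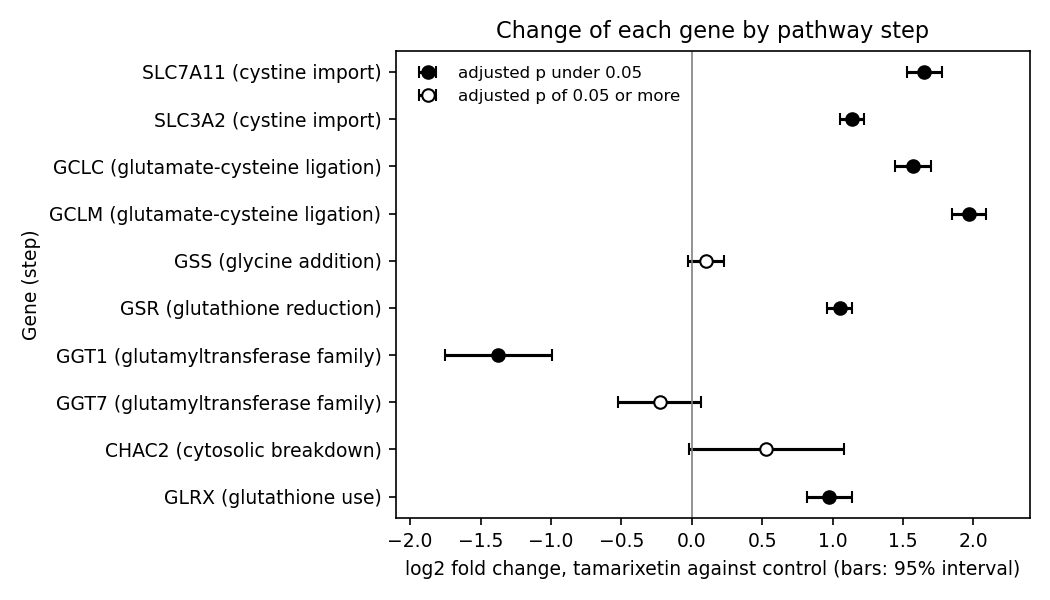
Log2 fold change of tamarixetin against control for each of the 10 genes, ordered by pathway step, with bars for the 95% interval and open circles where the adjusted p was 0.05 or more. Import, ligation, reduction and glutaredoxin lie to the right of 0, GSS, GGT7 and CHAC2 have intervals that include 0, and GGT1 lies at -1.37.

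The levels ran in another order after tamarixetin. In control the group means ran from SLC3A2 (136 CPM) and GSR (119 CPM) through GSS (56.8 CPM), SLC7A11 (37.3 CPM), GCLM (34.2 CPM), GCLC (34.1 CPM) and GLRX (27.7 CPM) to GGT7, GGT1 and CHAC2 (10.2, 9.16 and 2.33 CPM). The libraries of SLC7A11, GCLM and GCLC overlapped, as did those of GGT7 and GGT1. With tamarixetin GCLM (134 CPM), SLC7A11 (117 CPM) and GCLC (101 CPM) stood apart from each other and all above GSS (60.8 CPM), while GGT1 (3.52 CPM) came down to the level of CHAC2 (3.34 CPM).

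The genes around this pathway were listed in 9 groups with 111 genes in all. Of 92 tested, 40 rose, 30 fell and 22 did not pass, so 76.1% were called beside 43.7% of all genes tested. The median size of their change, without its sign, was 0.35 on the log2 scale, under the 1.09 of the 10 genes above. The lists, like the 10 genes, were chosen with earlier results of these data known. Their shares called and medians are thus descriptions and not tests.

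Of 14 further genes tested that bring in, make, reduce, use or divert cysteine and related sulfur compounds, 9 rose and 2 fell, with a median log2 fold change of 0.28. The list is thus not one of supply alone, and SQOR, a sulfide oxidation enzyme named after its value was seen, is among the rises (0.70). TXNRD1, the thioredoxin reductase that can also reduce cystine, stood at 48.5 to 52.9 CPM in control and 188 to 194 CPM with tamarixetin (log2 fold change 1.89, SE 0.052), and thioredoxin itself (TXN) rose by 0.57. The neutral amino acid carriers SLC1A5 (0.75) and SLC1A4 (0.55) rose as well. Of the transsulfuration route, which makes cysteine from methionine, CTH rose from 7.77 ± 1.10 to 16.4 ± 1.01 CPM (SD, n = 3 per group; log2 fold change 1.08, adjusted p = 4.33e-11), a gene named after its value was seen. CBS, the enzyme before it, had 0 counts in the control and 4 in the tamarixetin group, too few to be tested. Whether reads of CBS were lost in mapping or counting was not tested. MPST, a cysteine breakdown enzyme, fell by 0.27 and the cystine carrier SLC7A9 by 0.70 on the log2 scale. SLC7A9 was low (5.37 CPM in control) and did not pass without tamarixetin replicate 2 (adjusted p = 0.0757), which left 1 gene lower in this group.

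Of the other light chains that pair with SLC3A2, 1 of 3 tested rose and 1 fell. SLC7A5, the carrier of large neutral amino acids, stood at 222 to 242 CPM in control and 596 to 621 CPM with tamarixetin (log2 fold change 1.38, SE 0.037), well above SLC7A11 in both groups. SLC7A6, which exchanges basic for neutral amino acids, was at 18.4 to 22.3 CPM in control and 13.9 to 15.5 CPM with tamarixetin (log2 fold change -0.50, SE 0.111).

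Most genes of a list of peroxidases and glutaredoxins fell, and GLRX, which rose, is not in that list. Of 10 glutathione peroxidases, related peroxidases and further glutaredoxins, 7 fell and 2 rose, with a median log2 fold change of -0.24. The 7 include GPX1 (-0.14, adjusted p = 0.0493), named after its value was seen. The falls numbered 6 in DESeq2, in limma-voom, with library size scaling, with either other filter and at an adjusted p of 0.01. They also numbered 6 without control replicate 2 or any 1 tamarixetin replicate, and 3 with a minimum fold of 1.2. GPX4, the lipid hydroperoxide reductase named in the title, was at 215, 199 and 213 CPM in control and 161, 172 and 169 CPM with tamarixetin (log2 fold change -0.33, SE 0.043), with no overlap. It did not pass where a minimum fold of 1.2 was built into the test (adjusted p = 0.0977). PRDX6 (-0.50), the secreted GPX3 (-0.71) and the mitochondrial glutaredoxin GLRX5 (-0.29) fell, and so did GPX8, named after its value was seen, from 3.73 to 0.96 CPM (-2.00, SE 0.345). GLRX3, a glutaredoxin of iron handling, rose by 0.53. GLRX2, the second that rose (0.21, adjusted p = 0.0461), did not pass with 1 library left out in 5 of the 6 cases, all but tamarixetin replicate 2 (0.0574 to 0.131), nor in DESeq2 (0.0841), so that GLRX3 was then the only rise of the group.

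A mixed list of enzymes that act on glutathione adducts fell in 5 of 8 members and rose in 1, with a median of -0.20. It holds glyoxalases, formaldehyde adduct enzymes, the persulfide dioxygenase ETHE1 and the LanC-like proteins LANCL1 and LANCL2. ADH5, the S-nitrosoglutathione and formaldehyde adduct dehydrogenase, fell from 289 to 294 CPM in control to between 181 and 191 CPM (log2 fold change -0.65, SE 0.040). HAGH (-0.21), GLO1 (-0.18) and ETHE1 (-0.29) fell by less. HAGHL, a low gene that rose (0.69, adjusted p = 0.0137), overlapped between the groups and did not pass without control replicate 3, tamarixetin replicate 2 or tamarixetin replicate 3 (0.143, 0.109 and 0.0578). Of the glutathione transferases, 3 of 13 tested rose and 7 fell (median -0.23). MGST1, a membrane-bound transferase, stood at 143 to 158 CPM in control and 378 to 392 CPM with tamarixetin, while MGST2 (-0.79) and MGST3 (-0.47) fell and GSTO1 rose (0.54). GSTP1 rose at a low level (0.60, 2.96 CPM in control, adjusted p = 0.0357), a call lost without each library but control replicate 3 (0.0633 to 0.152) and in DESeq2 (0.0689).

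Carriers of glutathione and its conjugates rose in 7 of 11 and fell in 2, with a median of 0.25. The conjugate exporters ABCC3, ABCC2, ABCC1 and ABCG2 rose by 1.11, 0.98, 0.93 and 1.11 on the log2 scale, ABCC2 from 175 to 186 CPM in control to between 349 and 369 CPM. Carriers of the inner mitochondrial membrane did not move one way. SLC25A40 (-0.75, 10.0 CPM in control) and SLC25A11 (-0.20) fell, SLC25A39, a close relative of SLC25A40 at 173 CPM in control, rose by 0.12 (adjusted p = 0.0141), and SLC25A10 did not pass (0.047). The last pair of genes was named after their values were seen. SLC25A11 did not pass without tamarixetin replicate 2 (adjusted p = 0.0502). The count of rises was 4 without tamarixetin replicate 3, at an adjusted p of 0.01 and with a minimum fold of 1.2. It was 5 in DESeq2, with upper quartile scaling and without control replicate 2 or 3. With no filter and without tamarixetin replicate 1 or 2 it was 6, and in the remaining alternatives it stayed at 7.

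Further breakdown enzymes were mixed, with 2 of 9 higher, 2 lower and a median of 0.088. The share called, 44.4%, was near the 43.7% of all genes tested. CNDP2, a cytosolic dipeptidase that can split cysteinylglycine, rose by 0.64 (SE 0.066) and LAP3, an aminopeptidase, by 0.25. LAP3 did not pass without control replicate 3 or tamarixetin replicate 1 (adjusted p = 0.0845 and 0.214). DPEP1, the surface dipeptidase that acts after GGT1, fell from 11.3 to 15.2 CPM in control to between 6.99 and 7.31 CPM (log2 fold change -0.84, SE 0.148). The aminopeptidase ANPEP fell by 0.20, with groups that overlapped. GGCT and OPLAH, the cytosolic enzymes that return glutamate from the glutamyl products, did not pass (-0.078 and 0.012).

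NADPH, the electron source of GSR, is made by enzymes of which 5 of 9 tested rose and 3 fell (median 0.23). TALDO1, the transaldolase of the pentose phosphate pathway, stood at 180, 191 and 205 CPM in control and 355, 344 and 334 CPM with tamarixetin (log2 fold change 0.84, SE 0.041). The transketolase TKT of the same pathway (0.51) and the mitochondrial folate enzyme MTHFD2 (0.72) rose too. Those that fell were IDH1 (-0.26), the mitochondrial transhydrogenase NNT (-0.54) and ALDH1L1 (-0.34). The call of ALDH1L1 was lost without control replicate 1 or 2 or tamarixetin replicate 1 or 3 (adjusted p = 0.0547 to 0.313) and in DESeq2 (0.0868).

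A list of transcription factors known to act on the pathway, which also holds the regulators KEAP1 and TRIB3, rose in 10 of 15 members and fell in 1, with a median of 0.38. MAFF and MAFG, small partners of NRF2 on DNA, rose most (1.36 and 1.32), MAFG from 80.0 to 86.5 CPM in control to between 201 and 210 CPM. The RNA of NRF2 itself (NFE2L2) moved by less, from 183 to 186 CPM in control to between 216 and 224 CPM (log2 fold change 0.25, SE 0.042). KEAP1 (0.59), TRIB3 (0.58), an inhibitor of ATF4, and ATF4 (0.33) rose. Without control replicate 3, 2 of these factors were lower.

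**Figure D4:**
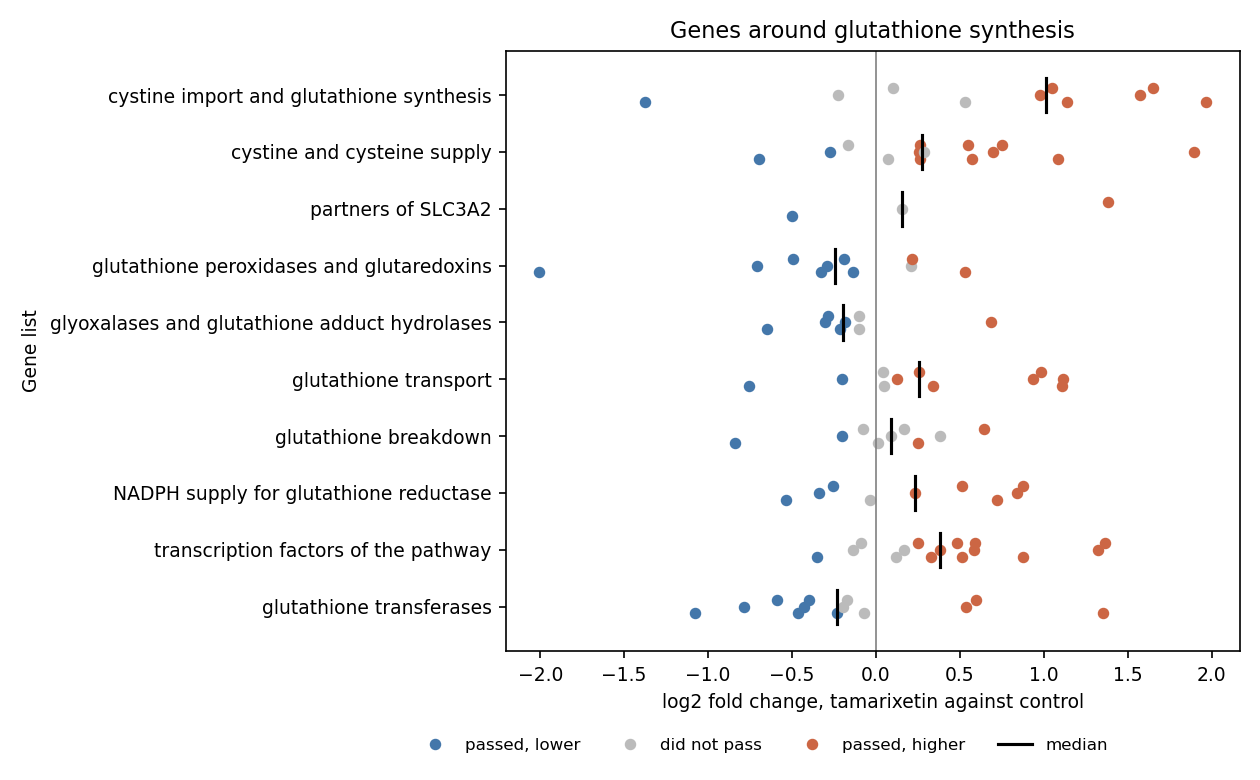
Log2 fold changes of the genes tested in the pathway and in 9 related lists, as dots for genes that passed higher (orange), passed lower (blue) or did not pass (grey), with a black line at each median. The median is 1.01 for the 10 genes of cystine import and glutathione synthesis and lies between -0.24 and 0.38 in the related lists.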

How the data were processed

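The RNA was read with a 3′ tag kit (QuantSeq, forward version, Lexogen), per the labels' protocols. The tools listed in the submitters' processing notes are featureCounts 2.0.6, STAR 2.7.10b and fastp 0.23.1, with GRCh38 as the build. Not given in the sources used here are the annotation release, the strand setting and whether molecular identifiers were used, so PCR copies may be among the counts. The authors deposited 1 table per library with unscaled counts for each gene symbol. Gene positions and promoter windows came from RefSeq tables of GRCh38.p14 (42739 of 43424 symbols matched), and strands from GENCODE.

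All 6 libraries were fitted with edgeR 4.0.16 in R 4.3.3 (filterByExpr, TMM factors, quasi-likelihood F test, group as the only term), with p adjusted by Benjamini-Hochberg over 13198 genes and a threshold of 0.05. The common biological coefficient of variation was 4.70%. An SE is the log2 fold change over the square root of F, and 95% intervals use the t quantile of the same fit. Ratios used raw counts within a library. The test was checked on simulated counts. P-values of this fit weigh the difference between the groups against the spread between these cultures.

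Members and lists were chosen with earlier results of these data known. Named were all 10 members, up to 4 genes per list with the smallest p, up to 3 that moved against their list, genes that overlap or copy a member, and GPX4, NFE2L2, KEAP1, ATF4 and CHAC1. A few list genes that the rule names are counted but not reported here by name. Alternatives were DESeq2 1.42.0 and its size factors, library size or upper quartile scaling, limma-voom (limma 3.58.1), the replicate number as a block, no filter or a filter of 5 CPM in 3 libraries, each library left out, an adjusted p of 0.01 and a minimum fold of 1.2.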

Additional observations from a re-analysis of the deposited data

How the results depend on the processing

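The counts of 6 members higher and 1 lower were the same in all 16 alternatives, and no member changed its side of the threshold. The log2 fold change ranged from 1.60 to 1.72 for SLC7A11, 1.91 to 2.03 for GCLM, 0.065 to 0.14 for GSS and -1.62 to -1.23 for GGT1. CHAC2 was removed by the filter of 5 CPM in 3 libraries. Where the test required a fold above 1.2, pathway list genes lower numbered 14 in place of 30, all genes higher 1319 in place of 2954 and all genes lower 1241 in place of 2817. The 4 count ratios kept their sign in all 8 alternatives each, from 0.31 to 0.47 for GCLM to GCLC, though at this size none of their tests can pass the threshold. Libraries with the same replicate number did not deviate together (correlations of 0.00043, -0.036 and -0.020, and 0 of 6 libraries correlated best with its own number), so the numbers were not taken as pairs. With the replicate block, 6 members were higher and 1 lower, and all genes higher numbered 2943. Depth limits CHAC2, GGT1 and GGT7, each with under 200 counts per library.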

Other observations

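SLC7A11 shares its heavy chain with 5 other light chains, and the following values were computed after the data were seen. Of all counts of the 6 light chain genes, SLC7A11 held 12.7%, 13.9% and 11.6% in the control libraries and 15.7%, 15.5% and 16.1% in the tamarixetin libraries, so that its share was higher in each tamarixetin library. The 6 light chains together had 2.20, 2.04 and 2.24 counts per count of SLC3A2 in control and 2.43, 2.46 and 2.56 with tamarixetin. Most light chain counts came from SLC7A5 in both groups.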
